A study of Mus musculus with 8 samples.

Results

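The genes described here drive or mark cell division, from the licensing of DNA replication to the exit from mitosis. The set was given by name and holds 36 genes. Of these, 35 had a probe set assigned to 1 gene, out of 18193 genes read on the array, and Ccnb1 was not analysed here. Each gene was read from its probe set of highest mean log2 signal over the 8 arrays. A filter on low values (a mean log2 signal of 5.27, a signal of 38.7) left 29 of the 35 genes for testing, among 13221 genes in all. The 6 genes under it were Cdc6, Tyms, Tk1, Bub1, Kif20a and Cenpe. Of the 29 tested, 24 lay above the filter on all 8 arrays, and Aurkb, Kif11, Ube2c, Kif23 and Bub1b did not.

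RNA came from mice at postnatal day 16, from tissue labelled organ of Corti, which is the sensory epithelium of the cochlea. Markers of other tissue were also high in it. In control apex the mean log2 signal was 14.29 for Mbp, of myelin, and 12.92 for Dmp1, of bone. The samples thus held more than that epithelium. Conditional knockout mice (cKO) were Atoh1-Cre;Dicer1(flox/flox), and the control littermates were Atoh1-Cre;Dicer1(flox/wt), from a cross of the strains Dicer1tm1Bdh and Tg(Atoh1-cre)1Bfri. Controls therefore also carried the Cre transgene and 1 floxed allele of Dicer1, the gene for the enzyme that makes mature microRNAs. Atoh1-Cre acts mainly in hair cells, so the other cells of the dissected tissue largely keep Dicer1. The apical and the basal parts of both cochleae of 1 mouse were each combined into 1 sample. Apex and base of either genotype made 4 groups of 2 samples, so that 4 presumed mice gave 8 arrays, each with 1 intensity per probe set. With so few arrays the precision is limited throughout.

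Dividing cells copy their DNA once per cycle, after helicase subunits of the MCM family have been loaded at origins, and then enter mitosis under the control of Cdk1 and its cyclins. A ubiquitin ligase, the anaphase-promoting complex (APC/C), then marks the mitotic cyclins for destruction, with Cdc20 and Ube2c as partners. Hair cells and supporting cells of the mammalian organ of Corti leave the cycle before birth and do not divide again. Much of the expression of mitotic genes is set at the promoter, where a repressor complex acts in resting cells through an element called CHR (cell cycle genes homology region) and the factor NF-Y binds CCAAT boxes. Genes of the start of S phase are more often controlled through E2F sites.

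Promoter windows of 300 bases (250 before to 50 after the start, RefSeq, GRCm38.p6) were found for 30 of the 36 genes. A CHR word, either TTTGAA on one or the other strand or the palindrome TTCGAA, was in the window of 16 of the 30, or 53.3%, against 21.7% of all 27025 genes with a window. CCAAT, on either strand, was in 24 of the 30 (80%), against 41.1%. Both were in 16 of the 30 (53.3%), against 9.65%. An E2F word (TTTCGCGC, TTTGGCGC, TTTCCCGC or TTTGCCGC, on either strand, which can overlap one another) was in 6 of the 30 (20%), against 2.6%. By role, CHR words were in 2 of 12 replication genes, 4 of 5 mitotic cyclins and kinases, 6 of 9 spindle genes, both chromosome genes and both APC/C partners. E2F words were in 5 of the 12 replication genes, 1 of the 5 mitotic drivers and 0 of the 9 spindle genes. These are matches of letters, not measured binding sites.

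The first 5 stretches below carry both CHR and CCAAT words, from genes of different roles: the mitotic kinase Cdk1, the topoisomerase Top2a, the proliferation marker Mki67, the APC/C activator Cdc20 and its partner Ube2c. Mcm6 shows overlapping E2F words of a replication gene, and Rrm2 is shown because, next to Mki67, it had the smallest p in the base while its window held no CHR or E2F word. Each is written 5′ to 3′ on the strand of its gene. Capitals mark the words searched, on either strand, so that CCAAT also appears as its reverse complement ATTGG.
Cdk1, chr10:69352913-69353052, minus strand: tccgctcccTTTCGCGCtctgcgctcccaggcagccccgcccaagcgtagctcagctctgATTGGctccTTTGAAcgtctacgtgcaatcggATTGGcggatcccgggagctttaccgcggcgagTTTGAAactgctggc
Top2a, chr11:99024200-99024299, minus strand: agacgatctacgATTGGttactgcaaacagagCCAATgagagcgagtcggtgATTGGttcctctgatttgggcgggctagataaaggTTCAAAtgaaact
Mki67, chr7:135716465-135716574, minus strand: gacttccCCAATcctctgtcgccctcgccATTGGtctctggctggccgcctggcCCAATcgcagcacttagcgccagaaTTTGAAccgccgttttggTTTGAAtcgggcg
Cdc20, chr4:118437344-118437413, minus strand: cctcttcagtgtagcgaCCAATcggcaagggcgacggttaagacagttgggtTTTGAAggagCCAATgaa
Ube2c, chr2:164769829-164769918, plus strand: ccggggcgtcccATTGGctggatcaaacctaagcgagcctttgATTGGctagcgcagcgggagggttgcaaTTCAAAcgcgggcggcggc
Mcm6, chr1:128359736-128359825, minus strand: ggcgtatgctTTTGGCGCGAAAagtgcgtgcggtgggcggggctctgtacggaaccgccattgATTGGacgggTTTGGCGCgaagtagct
Rrm2, chr12:24708184-24708233, plus strand: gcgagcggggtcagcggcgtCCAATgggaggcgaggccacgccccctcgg
The CHR words of Mki67 stand close together downstream of 3 CCAAT words, while Cdk1 holds 2 CHR words, 2 CCAAT words and 1 E2F word.

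Median signals of the arrays ran from 67.3 to 100.4 at a trimmed mean of 500. Log2 values of replicates correlated across genes at 0.9615 or above in 3 groups and at 0.9279 in control base. Both control base arrays stood apart, in different markers. In replicate 1, stria vascularis markers summed to a signal of 20968, against 50478 to 55547 on the other 3 basal arrays and 22205 to 27669 on the apical arrays. Across genes, replicate 1 correlated at 0.968 and 0.9576 with the control apical arrays and at 0.9589 and 0.9529 with the cKO basal arrays. These values lie above the 0.9279 between the control basal replicates. In replicate 2, neuron markers summed to 20408, against 32187 to 62950 on the other arrays. Over all genes tested, replicate 2 held the lowest value for 20.15% and the highest for 18.98%, against 14.23% and 15.35% in replicate 1. Values without control base replicate 1 are given beside several cell cycle results that it moves. Control mouse 1 was female by Xist (12.5 and 12.4 in log2 signal, at most 8.23 elsewhere). The Y chromosome genes Eif2s3y and Kdm5d were at 0.38 to 3.25 on its arrays and at 5.95 to 10.3 on the others. Sex was thus not balanced between genotypes. The label of apex or base matched Tectb, a tectorial membrane gene of the apex, at 12.5 to 13.5 in apical and 5.71 to 8.71 in basal samples. Hair cell markers, 8 of 9 above the filter, summed to 6557 to 8429 in apical and 4275 to 5331 in basal samples. Dicer1 itself ranged from 9.04 to 9.57 with no separation of genotypes, and where its probe set lies relative to the floxed part is not given in the sources used here.

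Across the 8 arrays the cell cycle genes had a median range of 1.07 log2, against 0.817 for all genes tested. The ranges were not matched for signal: the median log2 level of the cell cycle genes was 6.90 to 7.67 by array, against 9.21 to 9.30 for all genes tested. The smallest range was that of Mcm7, a helicase subunit, from 10.70 to 10.85. Pcna, the sliding clamp of DNA polymerase, had the next smallest, from 11.80 to 12.23. The widest ranges belonged to Bub1b (3.07), a spindle checkpoint kinase with values under the filter on 2 control arrays, Kif23 (1.95), a motor of cytokinesis, and Mki67 (1.91). Control base replicate 1 held the lowest value of the 8 arrays for 11 of the 29 genes (37.9%), against 14.2% of all genes tested. The highest value lay in cKO base replicate 2 for 9 of the 29 (31%), against 9.19%. Mice of a group also differed: in controls, 18 of the 29 genes (62.1%) were lower in mouse 1 than in mouse 2 in both regions, against 35.0% of all genes. In cKO mice this held for 13 of the 29 (44.8%), against 24.6%. Control mouse 1 was the only female, so in controls sex and mouse cannot be told apart. The heatmap of deviations shows the darkest low column in control base replicate 1.

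**Figure D1:**
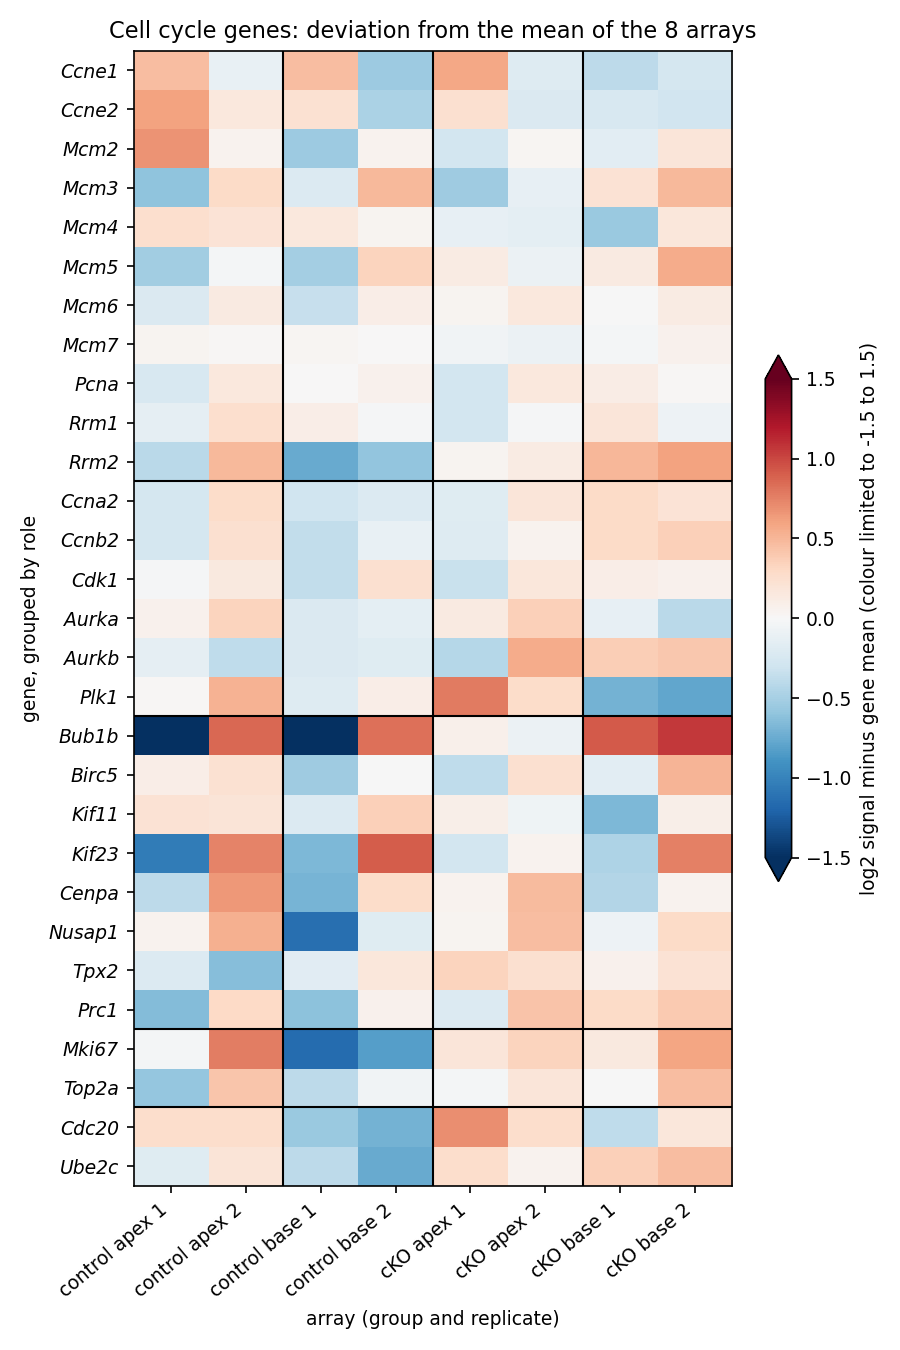
Heatmap of the 29 tested cell cycle genes (rows, grouped by role) on the 8 arrays (columns, by group and replicate); colour is the log2 signal minus the gene's mean over the 8 arrays, limited to -1.5 to 1.5. Control base replicate 1 is the lowest array for 11 genes, and cKO base replicate 2 the highest for 9.

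Between genotypes, the largest differences of the cell cycle genes lay in the base and in a few genes. In basal samples, Mki67 and Rrm2 had higher signals in cKO than in control mice by 2.57-fold and 2.34-fold, Ube2c by 1.98-fold, and the mitotic kinase Plk1 had a lower one by 1.62-fold. None of these passed limma's threshold after adjustment over all 13221 genes, and no gene on the array did in this comparison. In a dissected tissue a difference can come from the number of dividing cells or from the RNA per cell, and these cannot be told apart.

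Markers of other cells also differed in the same basal comparison, cKO minus control. Of all genes tested, 49.8% were above 0 in it. Hair cell genes had a median of -0.66, with 6 of 8 below 0. At an unadjusted p under 0.05 in limma 3 were lower and 1 was higher, against 3.12% of all genes in either direction. In 4, both cKO values lay below both control values, against 15.6% of all genes. Their summed signal overlapped, at 4346 and 5331 in control base and 4275 and 4772 in cKO base. Stria vascularis genes had a median of 1.42 (7 of 8 above 0), in which control base replicate 1 is the array with low stria signal. Bone genes, of osteoblasts and osteoclasts, had a median of 0.29 (7 of 8 above 0), and their summed signal was 23085 and 28325 in control base and 34836 and 31251 in cKO base, without overlap. No gene of these 3 lists passed after adjustment, and their part in the values of the cell cycle genes was not tested.

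Mki67, which encodes the Ki-67 protein coating mitotic chromosomes, was at a log2 signal of 7.0 and 7.31 in control base, and at 8.30 and 8.74 in cKO base. Its apical values were 8.11 and 8.91 in controls and 8.33 and 8.48 in cKO mice. Both control basal samples lay below the other 6 arrays, which overlapped among themselves. The basal difference, cKO minus control, was 1.36 ± 0.31 (log2, SE, n = 2 per group; limma unadjusted p = 0.00291, adjusted p = 1.00), and the apical one was -0.11 ± 0.31. Without control base replicate 1 the basal difference was 1.20.

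Rrm2 encodes the small subunit of ribonucleotide reductase, which supplies nucleotides for DNA synthesis. In the base it was at 7.43 and 7.58 in controls and at 8.68 and 8.78 in cKO mice, and in the apex at 7.77 and 8.67 in controls and 8.22 and 8.31 in cKO mice. Its control basal samples were the lowest and its cKO basal samples the highest of all 8. The basal difference was 1.23 ± 0.30 (log2, SE, n = 2 per group; limma unadjusted p = 0.00403, adjusted p = 1.00), and 1.15 without control base replicate 1. The other probe sets of Rrm2 above the filter gave 0.97 and 1.97 for it, in the same direction. In the apex its 3 probe sets gave 0.05, 0.68 and -1.22 and did not share a sign.

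Ube2c, the ubiquitin-conjugating enzyme of the APC/C, was at 5.39 and 5.03 in control base, against 6.14 and 6.24 in cKO base. In the apex it was at 5.60 and 5.97 in controls and at 6.04 and 5.84 in cKO mice. Its control basal values were the lowest and its cKO basal values the highest of the 8. The basal difference was 0.99 ± 0.36 (log2, SE, n = 2 per group; limma unadjusted p = 0.0258, adjusted p = 1.00) and 1.17 without control base replicate 1. The lower control value is under the filter level of 5.27.

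Plk1, the kinase of centrosome maturation and spindle assembly, went the other way from the genes above. It was at 7.62 and 7.92 in control base and at 7.10 and 7.04 in cKO base, against 7.83 and 8.33 in control apex and 8.59 and 8.09 in cKO apex. The cKO basal samples were the lowest of all 8 arrays. The basal difference, cKO minus control, was -0.70 ± 0.28 (log2, SE, n = 2 per group; limma unadjusted p = 0.0390, adjusted p = 1.00), and -0.85 without control base replicate 1.

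**Figure D2:**
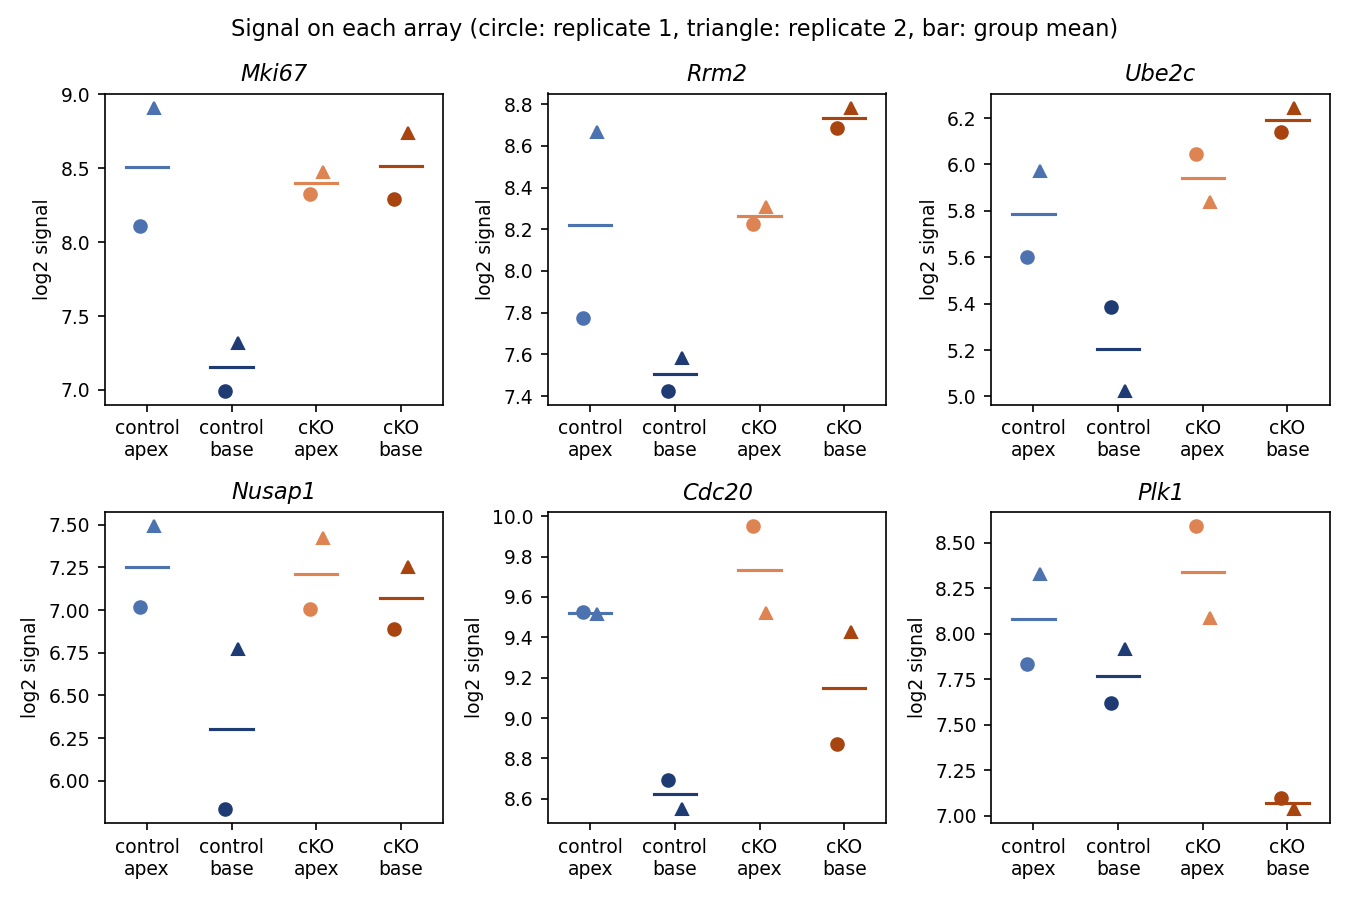
Log2 signal (y axis) of Mki67, Rrm2, Ube2c, Nusap1, Cdc20 and Plk1 in each sample of the 4 groups (x axis); circles are replicate 1, triangles replicate 2 and bars the means of 2 samples. Control base is low for Mki67, Rrm2 and Ube2c, and cKO base is low for Plk1 at 7.10 and 7.04.

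Over the 29 genes in the base, 0 passed the adjusted threshold (0% of all genes tested did), and 4 (Mki67, Rrm2, Ube2c and Plk1) had an unadjusted p under 0.05, against 3.12% of all genes tested. The median difference was 0.21, against -0.00 for all genes, and 23 of the 29 were above 0, against 49.8% of all genes. Genes of a region share their 4 samples, so these counts do not come from independent measurements. Without control base replicate 1 the median was 0.070 and 17 of 29 were above 0, whereas without control base replicate 2 it was 0.54, with 21 above 0. Without cKO base replicate 1 the median was 0.43, and without cKO base replicate 2 it was 0.12. In 11 genes both cKO basal values lay above both control values (Aurkb, Bub1b, Ccna2, Ccnb2, Cdc20, Mki67, Nusap1, Prc1, Rrm2, Top2a and Ube2c), against 13.1% of all genes tested. The opposite held for Plk1 alone, against 15.6%.

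By role, the difference in the base was near 0 for DNA licensing and replication (median 0.03, 8 of 11 above 0). Mcm2, a helicase subunit, was at 8.17 and 8.75 in control base and 8.54 and 8.89 in cKO base, with overlapping groups. A second Mcm2 probe set gave a difference of -0.49 where the first gave 0.26. Pcna was at 12.08 and 12.14 in control base and at 12.18 and 12.09 in cKO base, a difference of 0.03 ± 0.19 (log2, SE). Ccne1, the cyclin of entry into S phase, was at 8.86 and 7.85 in control base and 8.0 and 8.13 in cKO base. Its difference of -0.29 ± 0.40 rested on control base replicate 1, since it was 0.21 without that array.

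The mitotic cyclins and kinases had a median of 0.32 in the base, with 4 of 6 above 0. Cdk1 was at 6.90 and 7.50 in control base and at 7.36 and 7.33 in cKO base, and the groups overlapped. Spindle, kinetochore and checkpoint genes had a median of 0.29, with 7 of 8 above 0. Bub1b gave the largest difference, 1.58 ± 1.05 (log2, SE), from 3.40 and 6.24 in control base and 6.34 and 6.47 in cKO base, so that 1 control array made most of it: without control base replicate 1 it was 0.16. Nusap1, which bundles spindle microtubules, was at 5.83 and 6.77 in control base and 6.89 and 7.25 in cKO base. Its lower control value was again that of replicate 1, so its difference is smaller without that array. Kif11, the motor that separates the spindle poles, was at 5.56 and 6.12 in control base and 5.10 and 5.85 in cKO base, a difference of -0.37 ± 0.41, which was 0.012 without cKO base replicate 1. Top2a, which untangles DNA before it is divided, was at 6.86 and 7.20 in control base and at 7.25 and 7.72 in cKO base, and the groups did not overlap. Its difference was 0.46 ± 0.38. Cdc20 was at 8.69 and 8.55 in control base and 8.87 and 9.43 in cKO base, a difference of 0.53 ± 0.24, while its second probe set gave 0.26.

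**Figure D3:**
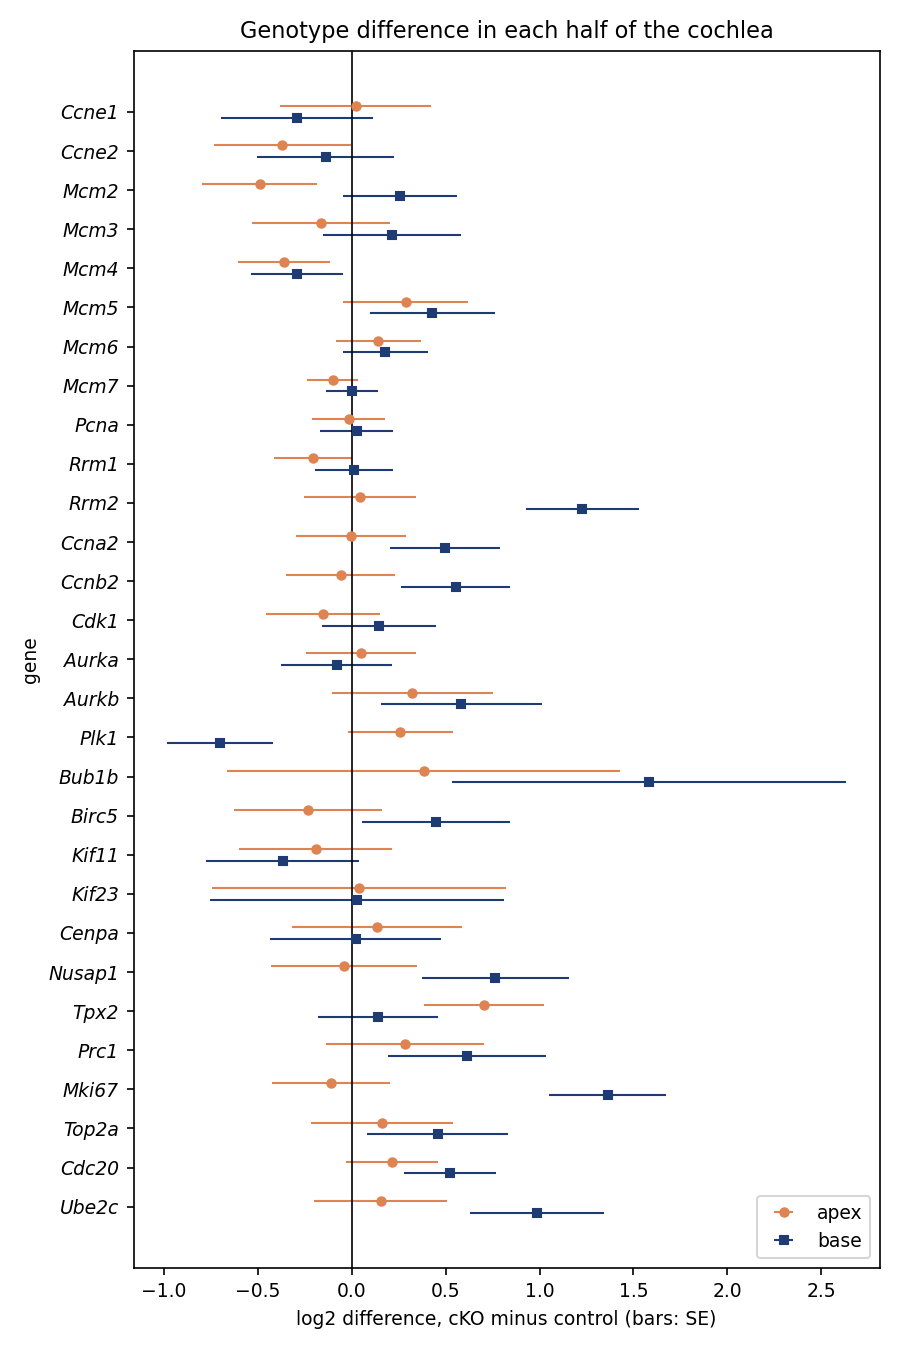
Log2 difference, cKO minus control (x axis), of each tested cell cycle gene (y axis) in the apex (circles) and base (squares); bars are standard errors of the limma fit with n = 2 per group. In the base 23 of 29 genes lie above 0, with Bub1b at 1.58 carrying the widest error of 1.05; in the apex 15 of 29 do.

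In the apex the genotypes differed little in these genes. The median difference was 0.02, against 0.00 for all genes, and 15 of the 29 were above 0, against 50.1% of all genes. No gene reached even an unadjusted p of 0.05 in limma, against 2.19% of all genes tested, and 0% of all genes passed after adjustment. The difference was largest for Tpx2, which activates Aurora A on the spindle, at 6.09 and 5.66 in control apex and 6.63 and 6.54 in cKO apex (0.70 ± 0.32, log2, SE, n = 2 per group; limma adjusted p = 1.00). It was the only gene whose cKO values lay above both control values, against 15% of all genes tested, and its 3 probe sets gave 0.70, 0.84 and -0.10. Both cKO values lay below both control values for Kif11, Mcm2, Mcm4 and Mcm7, against 16.2%.

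Of the genes lower in the cKO apex, Mcm2 was at 9.38 and 8.76 in controls and 8.43 and 8.73 in cKO mice (-0.49 ± 0.30, log2, SE). With 1 array left out it ran from -0.80 to -0.18 (without control apex replicate 1), and its second probe set gave -0.19. Mcm4, of the same helicase, was at 9.73 and 9.69 against 9.37 and 9.34 (-0.36 ± 0.25). Ccne2, a second cyclin of S phase entry, was at 7.10 and 6.65 against 6.73 and 6.28 (-0.37 ± 0.36, from -0.60 to -0.14 with 1 array left out), and its groups overlapped. Bub1b (3.77 and 6.28 against 5.48 and 5.33, 0.38 ± 1.05) and Aurkb, the kinase of chromosome attachment (5.48 and 5.23 against 5.19 and 6.17, 0.32 ± 0.43), each took their positive difference from 1 array. Without control apex replicate 1 Bub1b was at -0.87, and without cKO apex replicate 2 Aurkb was at -0.17. The median of the 29 genes was -0.22 without control apex replicate 1 and 0.21 without control apex replicate 2. Cdk1 (7.25 and 7.41 against 6.93 and 7.43), Pcna (11.82 and 12.23 against 11.80 and 12.22) and Top2a (6.67 and 7.67 against 7.23 and 7.44) overlapped between genotypes.

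Set against each other, the genotype effects in base and apex differed in the same few genes, without passing the adjusted threshold. The difference of the effects, base minus apex, was 1.47 ± 0.44 for Mki67, 1.18 ± 0.42 for Rrm2 and -0.96 ± 0.40 for Plk1 (log2, SE; limma adjusted p = 1.00 for each). These 3 of the 29 genes had an unadjusted p under 0.05, against 1.13% of all genes tested, while 0 genes in all passed after adjustment. The median over the 29 was 0.26, with 22 above 0, against 49.5% of all genes, and it ranged from 0.028 without control apex replicate 2 to 0.47 without control base replicate 2. With apex and base averaged within each presumed mouse, the cell cycle genes had a median genotype difference of 0.11, with 19 of 29 above 0, against 49.7% of all genes. Only Rrm2 then had an unadjusted p under 0.05 (0.64 ± 0.23, log2, SE, n = 2 mice per genotype; limma adjusted p = 0.999), against 2.41% of all genes tested. Without control mouse 1 this median was -0.038.

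Along the cochlea of control mice, most cell cycle genes had lower values in the base than in the apex. The control basal samples are shared with the genotype comparison in the base, so the comparisons are not independent. Mki67 differed by -1.36 ± 0.31 (log2, SE, n = 2 per group; 2.56-fold; limma adjusted p = 0.416), from 8.11 and 8.91 in the apex to 7.0 and 7.31 in the base. Cdc20 was at 9.52 and 9.52 in the apex and 8.69 and 8.55 in the base (-0.90 ± 0.24, limma adjusted p = 0.514), and its second probe set gave -0.36. Rrm2 differed by -0.71 ± 0.30 (limma adjusted p = 0.662). Its value ran from -1.16 without control apex replicate 1 to -0.27 without control apex replicate 2, and its other probe sets gave -0.02 and -1.35. Nusap1 was at 7.02 and 7.49 in the apex against 5.83 and 6.77 in the base (-0.95 ± 0.39, limma adjusted p = 0.658). Its difference was -0.48 without control base replicate 1, and 0.69 when the mean of its probe sets, 1 of them under the filter, was used. In these 4 genes the groups did not overlap.

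Those 4 of the 29 genes were at an unadjusted p under 0.05, against 7.52% of all genes tested, and 0 passed after adjustment, as did 0% of all genes. Lower in the base were 23 of the 29, with a median of -0.20, against -0.02 for all genes, of which 47.8% lay above 0. Scaling moved this: the median was -0.047 after quantile normalization, with 19 below 0, and -0.18 when arrays were centred on their 75th percentile. It was also -0.048 without control apex replicate 2, -0.076 without control base replicate 1, -0.40 without control base replicate 2 and -0.48 without control apex replicate 1. In 9 genes both basal values lay below both apical ones (Aurka, Birc5, Cdc20, Mcm2, Mcm4, Mki67, Nusap1, Rrm2 and Ube2c), against 16.9% of all genes tested. Tpx2 alone lay apart in the other direction (6.12 and 6.47 in the base), against 17%. Its difference was 0.42 ± 0.32, and its other probe sets gave 0.44 and -0.34. For Mcm2 the second probe set gave 0.27 where the first gave -0.61. Mcm3 (7.61 and 8.50 in the apex, 8.01 and 8.70 in the base) and Kif23 (4.40 and 6.19, then 4.78 and 6.36) had positive differences of 0.30 and 0.27 with overlapping groups. Both signs turned when control apex replicate 1 or control base replicate 2 was left out. Cdk1 (7.25 and 7.41, then 6.90 and 7.50), Top2a (6.67 and 7.67, then 6.86 and 7.20) and Pcna also overlapped between the regions.

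In cKO mice the pattern along the cochlea was mixed, and Plk1 stood out. Plk1 was at 8.59 and 8.09 in the cKO apex and at 7.10 and 7.04 in the base, a difference of -1.27 ± 0.28 (log2, SE, n = 2 per group; 2.41-fold; limma adjusted p = 0.156). It passed the threshold in the fit of the cKO groups alone (adjusted p = 0.0435), but not with a block for the presumed mouse, whether fixed (0.107) or random (0.0670). The fit without control mouse 1 (adjusted p = 0.0422) leaves 1 array in each control group and so takes its spread from the same 4 cKO arrays as the fit of the cKO groups alone. Cdc20 was at 9.95 and 9.52 in the apex and 8.87 and 9.43 in the base (-0.59 ± 0.24, limma adjusted p = 0.433), while its second probe set gave -0.35. With 1 array left out it ran from -0.87 to -0.31 (without cKO base replicate 1). These 2 of the 29 genes had an unadjusted p under 0.05, against 11.3% of all genes tested, and 0 passed after adjustment, against 0.0832%.

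The median base minus apex difference of the 29 genes in cKO mice was 0.14, with 18 above 0, against 47.1% of all genes. It was -0.043 without cKO apex replicate 1 and -0.079 without cKO base replicate 2. In 8 genes the basal values lay above the apical ones without overlap (Bub1b, Ccna2, Ccnb2, Mcm3, Mcm5, Mcm7, Rrm2 and Ube2c), against 23.2% of all genes, and in 6 below (Aurka, Ccne1, Ccne2, Cdc20, Plk1 and Tpx2), against 25.6%. Bub1b differed by 1.00 ± 1.05 and Rrm2 by 0.47 ± 0.30. Mcm3, a helicase subunit, was at 7.69 and 8.10 in the apex and 8.44 and 8.70 in the base (0.68 ± 0.37). Ccne1 was at 8.97 and 8.20 in the apex and 8.0 and 8.13 in the base (-0.53 ± 0.40). That difference was -0.14 without cKO apex replicate 1 and -0.91 without cKO apex replicate 2, and its second probe set gave -0.12. Mki67 differed by 0.11 ± 0.31 in cKO mice, with overlapping values.

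Averaged over both genotypes, Cdc20 and Plk1 were the cell cycle genes closest to a difference between base and apex. Cdc20 differed by -0.74 ± 0.17 (log2, SE, n = 4 per region; 1.67-fold; limma adjusted p = 0.0906), with -0.36 in controls and -0.35 in cKO mice from its second probe set, and Plk1 by -0.79 ± 0.20 (1.73-fold; limma adjusted p = 0.110). With the presumed mouse as a random block, Plk1 passed the threshold (limma adjusted p = 0.0486) and Cdc20 had an adjusted p of 0.0511; with the mouse as a fixed block these were 0.0701 and 0.101. Without control base replicate 1 Cdc20 passed (-0.78, limma adjusted p = 0.0381). Mki67 differed by -0.62 ± 0.22 (limma adjusted p = 0.222), a mean of unlike values in the 2 genotypes. With these 3 genes at an unadjusted p under 0.05, against 17.2% of all genes tested, and 0 past the adjusted threshold, against 1.19%, the 29 genes as a set held no excess of calls. In 2 genes, Aurka and Cdc20, the basal values of both genotypes lay below all apical values, against 6.4% of all genes, and in 0 above, against 5.96%. The blocked fits called 255 genes (fixed) and 527 (random) where the unblocked fit called 157.

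The promoter words can be set beside these values as a description. The 15 tested genes with a CHR word had a median base minus apex difference of -0.22 in controls, with 1 of 15 above 0. The 9 tested genes with a window and no CHR word had one of -0.08, with 3 of 9 above 0. For cKO minus control in the base the medians were 0.26 (12 of 15 above 0) and 0.21 (8 of 9 above 0). The 5 tested genes with an E2F word had a median of 0.18 there. Mki67 and Ube2c, with CHR words, and Rrm2, with only CCAAT in its window, were the 3 genes higher there at an unadjusted p under 0.05 in limma. They were picked by these differences, so their likeness says nothing of the words. Plk1, also with a CHR word, was at -0.70 in the same comparison.

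Other genes of the pathway gave like counts. Of 41 further proliferation genes tested, 33 were lower in control base than in control apex (median -0.30), where 47.8% of all genes lay above 0. In limma 6 of them had an unadjusted p under 0.05, against 7.52% of all genes in either direction. Among the 6 were Prim1, the DNA primase, at -0.57 ± 0.18, and Brca1, of DNA repair, at -0.83 ± 0.29 (limma adjusted p = 0.579 and 0.608). In 14 of the 41 the basal values lay below the apical ones without overlap, against the 16.9% of all genes. For cKO minus control in the base the median of the 41 was 0.15, with 28 above 0, against 49.8% of all genes. In limma 1 (Cdca8, of the chromosomal passenger complex, 0.98 ± 0.40) had an unadjusted p under 0.05, against 3.12% of all genes. None of the 41 is among the 36 genes, but they were read in the same samples.

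The list of 13 tested E2F, B-Myb and FoxM1 regulators had a median of 0.05 for cKO minus control in the base, with 7 above 0. Along the control cochlea its median was -0.16, with 9 of 13 below 0. The largest basal difference in it was that of E2f8, a repressor of the E2F family, at 3.68 and 5.66 in control base and 5.95 and 6.33 in cKO base (1.47 ± 0.88, limma unadjusted p = 0.137). One of its control values lay under the filter. Foxm1, the activator of mitotic genes, was at 7.02 and 7.03 in control base and 6.82 and 6.92 in cKO base, and at 7.0 and 6.75 in control apex and 6.15 and 6.73 in cKO apex. E2f1, an activator of S phase genes, was at 5.27 and 6.12 in control base and at 5.90 and 6.01 in cKO base. Mybl2 was under the filter, from 4.60 to 5.95. Neither Foxm1 nor E2f1 was at an unadjusted p under 0.05 in limma between genotypes in either region.

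Genes that hold cells out of the cycle, the CDK inhibitors, with the D cyclins that open it, gave a median of 0.13 in the base (11 of 18 above 0). Cdkn1b, the inhibitor p27 that keeps supporting cells from dividing, was at 10.75 and 10.30 in control base and at 10.00 and 10.18 in cKO base (-0.43 ± 0.20, limma adjusted p = 1.00). Its cKO values lay below both control values. Cdkn1a, the inhibitor p21, was at 13.14 and 13.17 in control base and 13.49 and 13.39 in cKO base (0.29 ± 0.10, limma unadjusted p = 0.0273, adjusted p = 1.00). Ccnd1, a D cyclin, was at 8.56 and 9.49 in control base and 9.37 and 9.86 in cKO base, with overlap.

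Blood cell precursors divide and were examined because their transcripts could add to those of the cell cycle in a dissected tissue next to bone marrow. Of the neutrophil precursor list, 6 of 6 tested genes had higher values in cKO base than in control base, against 49.8% of all genes, with a median of 1.82. Their summed signal was 265.8 and 515.7 in control base and 1253 and 979.7 in cKO base, with 329.5 and 356.7 in control apex and 487.9 and 793.1 in cKO apex. Mpo, the peroxidase of the first granules, was at 5.64 and 7.73 in control base and 8.91 and 8.73 in cKO base (2.13 ± 0.59, limma unadjusted p = 0.00801, adjusted p = 1.00). The lower control value was that of replicate 1, so the difference is smaller without that array. Prtn3, a granule protease, differed by 1.62 ± 0.36 in the base and by 0.96 ± 0.36 in the apex. Elane, another, differed by 2.02 ± 0.68 and 2.11 ± 0.68. The control means of Elane, 4.84 in the base and 4.20 in the apex, lay under the filter. The size of its differences thus rests on low control signals. Only 3 of the 6 neutrophil precursor genes lay above the filter on all arrays. In Prtn3 and Elane the cKO samples lay higher in both regions. For cKO minus control in the apex the neutrophil precursor list had a median of 0.87, with 6 of 6 above 0, against 50.1% of all genes. There the later granule genes had a median of 0.13 (7 of 10 above 0) and the erythroid list one of -0.17 (1 of 13). That of the cell cycle genes was 0.02 (15 of 29). Later granule genes differed in the base by a median of 1.19, with 10 of 10 above 0, and summed to 2900 and 4908 in control base against 9135 and 9130 in cKO base.

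The erythroid precursor list had a median of 0.53 in the base, with 11 of 13 above 0, against 49.8% of all genes. Its summed signal overlapped between genotypes there, at 9819 to 15159 in control and 10726 to 14923 in cKO base. Gata1, the erythroid transcription factor, was at 5.14 and 4.97 in control base, under the filter, against 6.69 and 7.01 in cKO base, 6.33 and 6.60 in control apex and 6.32 and 6.57 in cKO apex. Like Mki67, it was thus lower in both control basal samples than on the other 6 arrays. Klf1 (5.62 and 6.66 against 6.40 and 6.84) and Alas2, of heme synthesis (8.83 and 10.77 against 10.48 and 9.75), overlapped between genotypes in the base. Along the control cochlea the erythroid list, like the cell cycle genes, was lower in the base, with a median of -0.59 and 11 of 13 below 0. Later granule genes of neutrophils were also lower there, with a median of -0.33 and 9 of 10 below 0. Of the 6 neutrophil precursor genes 5 were above 0, against 47.8% of all genes. The control base means of Elane (4.84) and Ctsg (4.26), both of that list, lay under the filter. Lymphoid precursor genes had a median of 0.18 in the base for cKO minus control, with 8 of 9 above 0. Hemoglobin chains had 2 probe sets, both under the filter, summing to 14.9 to 69.6. The part of blood cells in the values of the cell cycle genes was not tested.

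**Figure D4:**
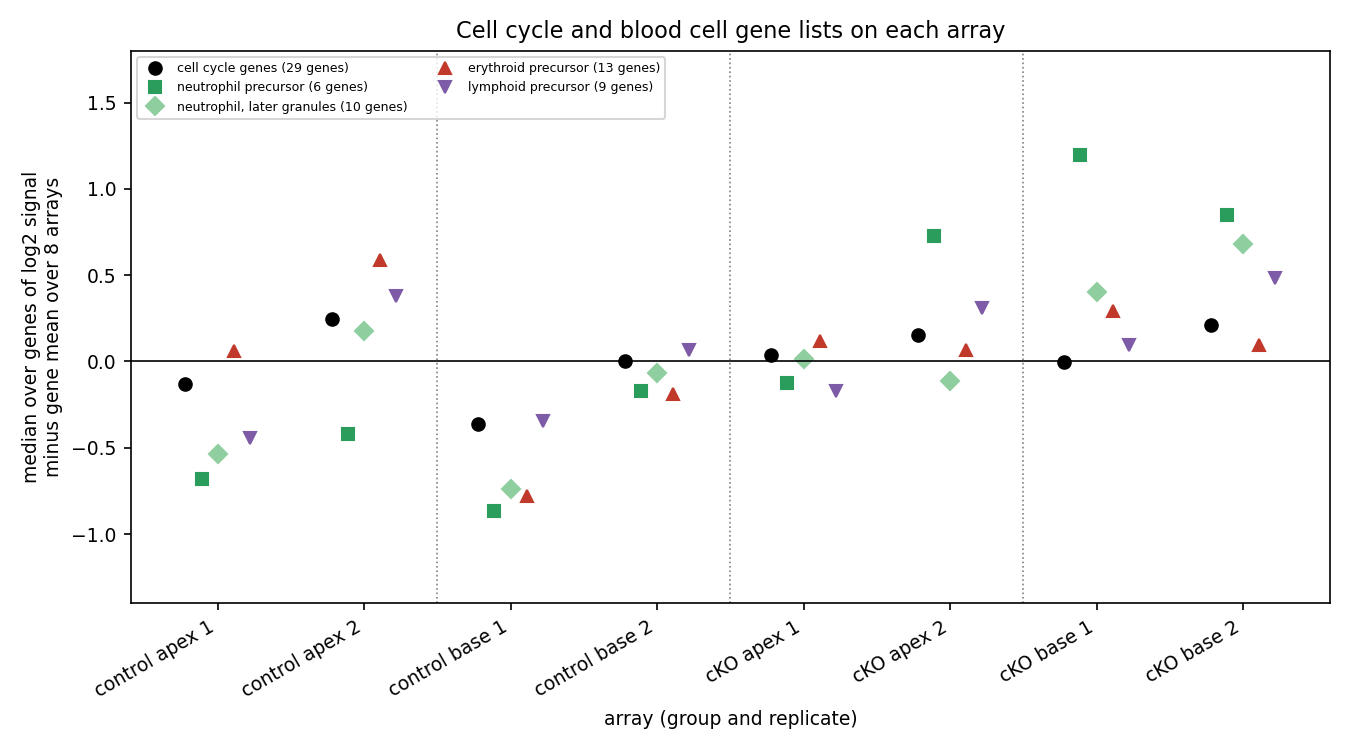
Median over the genes of a list of the log2 signal minus the gene's mean over the 8 arrays (y axis), for each array (x axis), for the 29 cell cycle genes and 4 lists of blood cell genes. Control base replicate 1 is low in all 5 lists, and the neutrophil precursor list stands high on both cKO basal arrays (1.20 and 0.85), where the cell cycle genes are at -0.00 and 0.21.

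Array by array, the median deviation of the cell cycle genes was -0.36 on control base replicate 1, 0.00 on control base replicate 2, -0.00 and 0.21 on the cKO basal arrays, -0.13 and 0.24 on the control apical arrays and 0.04 and 0.15 on the cKO apical arrays. In the base the neutrophil precursor list was at -0.87 and -0.17 in controls and at 1.20 and 0.85 in cKO mice. In the apex it was at -0.68 and -0.42 in controls and at -0.13 and 0.72 in cKO mice. Of the 2 control basal arrays, replicate 1 was the lower in both lists. In the control apex these lists parted: the cell cycle genes of replicate 2 were at their highest of the 8 arrays and the neutrophil precursor genes below their mean. The erythroid list, like the cell cycle genes, was highest on control apex replicate 2 (0.58) and lowest on control base replicate 1 (-0.78). The lymphoid list was at -0.44 and 0.38 in control apex, -0.35 and 0.064 in control base, -0.17 and 0.31 in cKO apex and 0.098 and 0.48 in cKO base. As in the cell cycle genes, replicate 1 was the lower array of each group in the lymphoid list. This was not particular to lymphoid genes. It also held for macrophage genes, for early blood progenitor genes and for the list of CDK inhibitors and D cyclins, among others.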

How the data were processed

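Expression was measured on 8 arrays, 2 per group. The labels' protocols name the mirVana kit for total RNA and 2-cycle amplification with biotin. Each deposited value is a linear intensity of 1 probe set, with a trimmed mean (2% off each end) of 500 on every array. The submitters' processing notes name MAS5 and affy 1.26, without their roles. Of 45101 probe sets, 64 were array controls, 34945 had 1 gene, 932 several and 9160 none in the supplied platform annotation, and 34741 were matched by Entrez identifier to current symbols. A gene was read from its probe set of highest mean log2 value, which was tested if above the 40th percentile, without pseudocount or further normalization.

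A linear model with 1 mean per group was fitted over the 8 samples in limma 3.58.1 (R 4.3.3) with an intensity trend (4 residual and 3.46 prior degrees of freedom). Two-sided p-values were adjusted by Benjamini-Hochberg over 13221 genes and a threshold of 0.05. Apex and base of 1 genotype and number were presumed to come from 1 mouse, since the labels tie a replicate to a single mouse; their deviations from the group means correlated at r = 0.339 in controls and 0.0683 in cKO mice. The genotype effect per mouse was fitted on means of both regions (2 residual degrees of freedom, 3.1 prior). Labels call the replicates biological, and p-values measure the spread between these samples.

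Full values were given for the 3 highest and 3 lowest differences of each contrast of 2 groups and for Mki67, Top2a, Cdk1, Pcna and Mcm2; Ube2c was added after its values were seen. The genes and lists were chosen with earlier results of these data known. Alternatives covered the filter, a pseudocount of 16, low values raised to the filter, quantile normalization, centring, averaged probe sets, no trend, the compared groups alone, blocks for the presumed mouse, and samples left out. The fit was tested on simulated data. Promoter sequences are RefSeq's on GRCm38.p6.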

Additional observations from a re-analysis of the deposited data

Results flagged for a closer look

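In 3 of the 29 genes the basal and apical samples lay apart in opposite directions in the 2 genotypes. Of all genes tested, 17% lay apart higher and 16.9% lower in the base of controls, and 23.2% and 25.6% in cKO mice. How many of all genes did so in opposite directions was not counted, so the 3 are not read as an excess. The base minus apex difference of cKO mice exceeded that of controls by 1.18 in log2 for Rrm2 (0.47 in cKO, -0.71 in controls) and by 0.83 for Ube2c (0.25 and -0.58). For Tpx2 it was lower, by -0.57 (-0.15 and 0.42), but its other probe sets gave 0.025 and 0.053 in cKO mice and 0.44 and -0.34 in controls. Those of Rrm2 gave 0.26 and 1.83 in cKO mice and -0.02 and -1.35 in controls. The test of the difference itself gave a limma adjusted p of 1.00 for each of the 3 genes.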

How the results depend on the processing

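The sign turned in 12 values of 7 results of single genes under an alternative. Bub1b, cKO minus control in the apex, was -0.37 with low values raised to the filter, -0.87 without control mouse 1 and -0.87 (without control apex replicate 1) to 1.64 with 1 sample left out. Aurkb in the same comparison ran from -0.17 (without cKO apex replicate 2) to 0.81. In the base, Ccne1 was 0.21 without control mouse 1 and ran from -0.79 to 0.21 (without control base replicate 1), and Kif11 from -0.74 to 0.012 (without cKO base replicate 1). For base minus apex in controls, Nusap1 was 0.69 with the mean of probe sets, while Kif23 ran from -0.62 to 1.16 and Mcm3 from -0.15 to 0.75, with the sign turned without control apex replicate 1 and without control base replicate 2 (-0.52 and -0.047). The cause was not tested. Leaving out both arrays of control mouse 1 was chosen after seeing the data; it leaves 1 array in each control group, so the spread comes from the cKO groups, and the lone arrays are assumed to vary like them.

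Genes called for base minus apex in cKO mice numbered 11. They numbered 0 with no filter, with quantile normalization, without the trend or with the presumed mouse as a fixed replicate block, 81 with the random block, 6 with the mean of probe sets, 449 with the compared groups alone or without control mouse 1 (1 cell cycle gene, Plk1, in both of the last), and 0 to 316 with 1 sample left out. For base minus apex over both genotypes 157 became 98 with the mean of probe sets, 70 without the trend, 255 and 527 (1 cell cycle gene, Plk1) with the fixed and random block, 1049 without control mouse 1 and 0 to 1518 with 1 sample left out, where 0 to 1 cell cycle gene was called. Without the trend, 1 gene was called for genotype in the apex and 1 in the base. For base minus apex in controls, 157 genes were called without control mouse 1 and 0 to 551 with 1 sample left out, for genotype in the base 0 to 37, and for genotype per mouse 0 to 9.

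With 1 sample left out, the median of the 29 genes ran from -0.22 to 0.21 for genotype in the apex (-0.22 without control mouse 1), 0.070 to 0.54 in the base, -0.48 to -0.048 for base minus apex in controls, 0.028 to 0.47 for the difference of genotype effects and -0.038 to 0.40 for genotype per mouse. The other 358 values of the comparisons stayed within 1.5 times the reported count or within the spread of replicates (0.222 log2). The replicate block on the presumed mouse changed no call of a cell cycle gene other than that of Plk1 over both genotypes. Replicate numbers are only shared across genotypes (r = -0.0312 in the apex and 0.177 in the base), and blocking on them called 0 of the 29 genes. Signals near the filter, as for Bub1b, Kif23 and Ube2c, limit what can be read from single arrays.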
